A study of Mus musculus with 6 samples.

Results

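The expression of 10 carbonic anhydrase genes was described in MIN6-4N cells, which derive from a beta cell tumour of the mouse pancreas. The members were taken by symbol, from probe sets to which the array annotation gives exactly 1 symbol, and they comprise 10 of 20416 measured genes and 97 of 212097 such probe sets. Car2, Car3, Car4, Car12, Car13, Car14 and Car15 encode catalytic enzymes, 7 in all, whereas Car8, Car10 and Car11 encode 3 carbonic anhydrase-related proteins without enzyme activity. The family was selected on the Car8 gene value, whose difference between the clones on these same arrays was already known, so the clone difference of the members is given as a description and supports nothing.

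The Meg3 group holds 3 independent cultures of 1 clone stably transfected with the expression plasmid pcDNA3.1 carrying mouse Meg3, an imprinted non-coding RNA. The vector group holds 3 independent cultures of 1 clone that carries the empty plasmid. Both clones went through nucleofection and 5 weeks of selection in G418 at 750 µg/ml, and both were then kept in low-glucose medium with 15% serum and 500 µg/ml G418. Because each group is a single clone, the plasmid's effect and other differences between the clones cannot be told apart, and every p-value refers to variation among cultures within the clones. The clone that carries Meg3 has different names in different labels, and they mention a sort of the cells that no protocol describes.

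Carbonic anhydrases catalyse the reversible hydration of carbon dioxide to bicarbonate and a proton, using a zinc ion held by histidine residues. Their isoforms differ in place: some are cytosolic, others are anchored in the plasma membrane and act on the outside of the cell. The related proteins keep the fold but have lost zinc-holding histidines. In the pancreas the classical site of high enzyme activity is the bicarbonate-secreting duct, and Car2 is a known duct gene.

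All values are log2 signals made with RMA, a summary of probe brightness, and a gene's value is the mean of its probe sets on an array. A probe set on this design covers about an exon. Signals of different genes depend on their probes, so the median of all gene values, 6.66, serves only for orientation and the members are not ranked against each other. Meg3 averaged 7.56 ± 0.34 in the Meg3 clone and 5.84 ± 0.19 in the vector clone (SD, n = 3 each). The log2 difference was 1.72 with a standard error (SE) of 0.19, and limma gave a Benjamini-Hochberg adjusted p = 0.00756 over all genes. The arrays of Meg3 replicate 1 and vector replicate 2 stood apart, since their probe set values scattered around the median of the remaining arrays with an SD of 0.63 and 0.85. On the other 4 arrays that SD was 0.42 to 0.48. Of 14 measured beta cell markers, 13 lay above the gene median (Ins2 averaged 12.60 in the Meg3 clone and 12.54 in the vector clone). Limma called 0 of the 14, with 3 at an unadjusted p under 0.05. These 3, named after their values were seen, were Pcsk1 (log2 difference -0.54) and Slc2a2 (-0.27), lower in the Meg3 clone, and Ucn3 (0.35), higher. Limma also called 0 of 6 alpha, delta, PP and epsilon cell markers, 0 of 8 acinar, 0 of 8 mesenchymal and 0 of 5 leukocyte markers, with 0, 0, 0 and 1 at an unadjusted p under 0.05. Over all genes 6.96% had an unadjusted p under 0.05, a smaller share than among the beta cell or the leukocyte markers. Neither excess was tested. Of the 6 alpha, delta, PP and epsilon cell markers, 4 lay above the gene median. Of the acinar, mesenchymal and leukocyte markers 0, 1 and 2 did. Gcg, named after its value was seen, averaged 12.66 in the Meg3 clone and 12.82 in the vector clone.

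Car8 stood higher in the Meg3 clone, Car13 stood lower, and the other 8 members had overlapping values in the 2 clones. Across all genes limma called 136 of 20416 (adjusted p under 0.05), or 0.666%, with 41 higher (0.201%) and 95 lower (0.465%) in the Meg3 clone. Of the 10 members 1 was called, Car8, and nothing is read from that count since the contrast was known when the family was chosen. The groups did not overlap for 2 members, Car8 and Car13, where 12.8% of all genes have groups that do not overlap. The median difference was -0.01 over the 10 members and 0.01 over all genes, on the log2 scale.

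**Figure D1:**
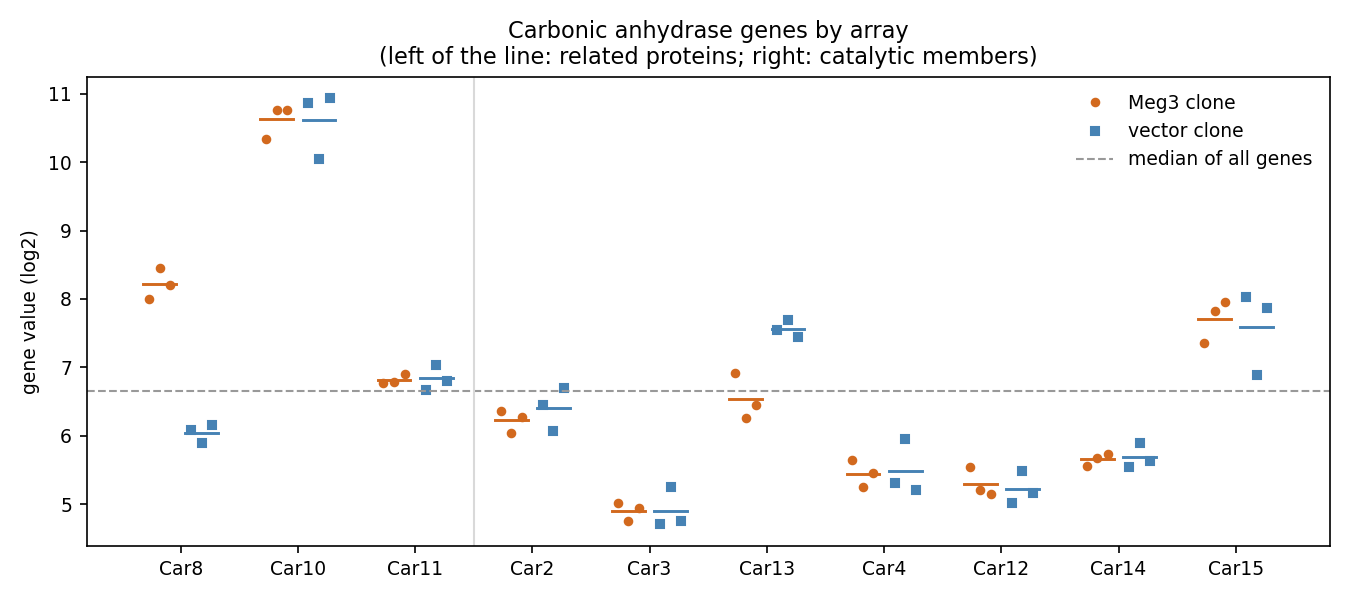
Gene values (log2, vertical axis) of the 10 carbonic anhydrase genes on each array, with Meg3 clone circles to the left of vector clone squares and short lines at the means of 3 cultures. The dashed line is the median of all gene values, 6.66. The Meg3 and vector symbols are fully separated for Car8 and Car13 and overlap for the other 8 genes.

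Car8 encodes a cytosolic related protein that binds the type 1 inositol trisphosphate receptor, the calcium release channel of the endoplasmic reticulum, and whose loss gives ataxia in mice. Its gene value was 8.00, 8.46 and 8.20 in Meg3 replicates 1, 2 and 3, against 6.09, 5.89 and 6.16 in vector replicates 1, 2 and 3. Every Meg3 culture lay above the gene median and every vector culture below it. The means were 8.22 ± 0.23 in the Meg3 clone and 6.04 ± 0.14 in the vector clone (SD, n = 3 each), a 4.52-fold difference (log2 difference 2.18, SE 0.15). The RNA came from whole cultures, so more cells with Car8 RNA and more Car8 RNA per cell cannot be told apart. Without the 2 arrays that stood apart the difference was 2.21.

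The gene mean averages over unlike probe sets. Of the 12 Car8 probe sets, 11 were higher in the Meg3 clone, and 4.4% of the 727 genes with 12 probe sets have 11 or 12 higher. Of the 12, 8 were higher without overlap between the clones, against 6% of all probe sets in that direction. A run of 7 neighbouring probe sets, the 5th to the 11th in order of their numbers, differed by 2.70 to 4.12 on the log2 scale, or 6.48-fold to 17.4-fold. These 7 had means from 7.92 to 11.40 in the Meg3 clone and from 4.94 to 8.16 in the vector clone. The other 5 differed by only -0.25 to 1.48, with means from 4.61 to 7.37 in the Meg3 clone and from 3.50 to 7.62 in the vector clone. This division into 7 and 5 was made after the values were seen.

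Probe set 10511440, with the highest signal averaged over the 6 arrays though in neither clone alone, read 11.08, 11.18 and 11.34 in the Meg3 cultures, against 8.29, 7.48 and 7.92 in the vector cultures. Probe set 10511438, with the largest difference, read 10.36, 10.89 and 10.79 in the Meg3 cultures, against 7.31, 5.75 and 6.61 in the vector cultures. For both, the lowest Meg3 culture was brighter than the highest vector culture by over 2 on the log2 scale. The last probe set in order, 10511441, departed from the rest: it read 7.91, 7.36 and 6.84 in the Meg3 cultures, against 7.19, 8.41 and 7.26 in the vector cultures, and the clones overlapped. The first 3 probe sets also overlapped between the clones, at means no higher than 5.32 in the Meg3 clone and 4.74 in the vector clone. Taken one probe set at a time, 0 of the 97 member probe sets passed limma over 212097 probe sets, of which 0.00377% were called. At an unadjusted p under 0.05 there were 15 among the 97, 8 of them of Car8 and 4 of Car13, where 5.65% of all probe sets had such a p. Nothing is read from that count either, for the same reason.

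**Figure D2:**
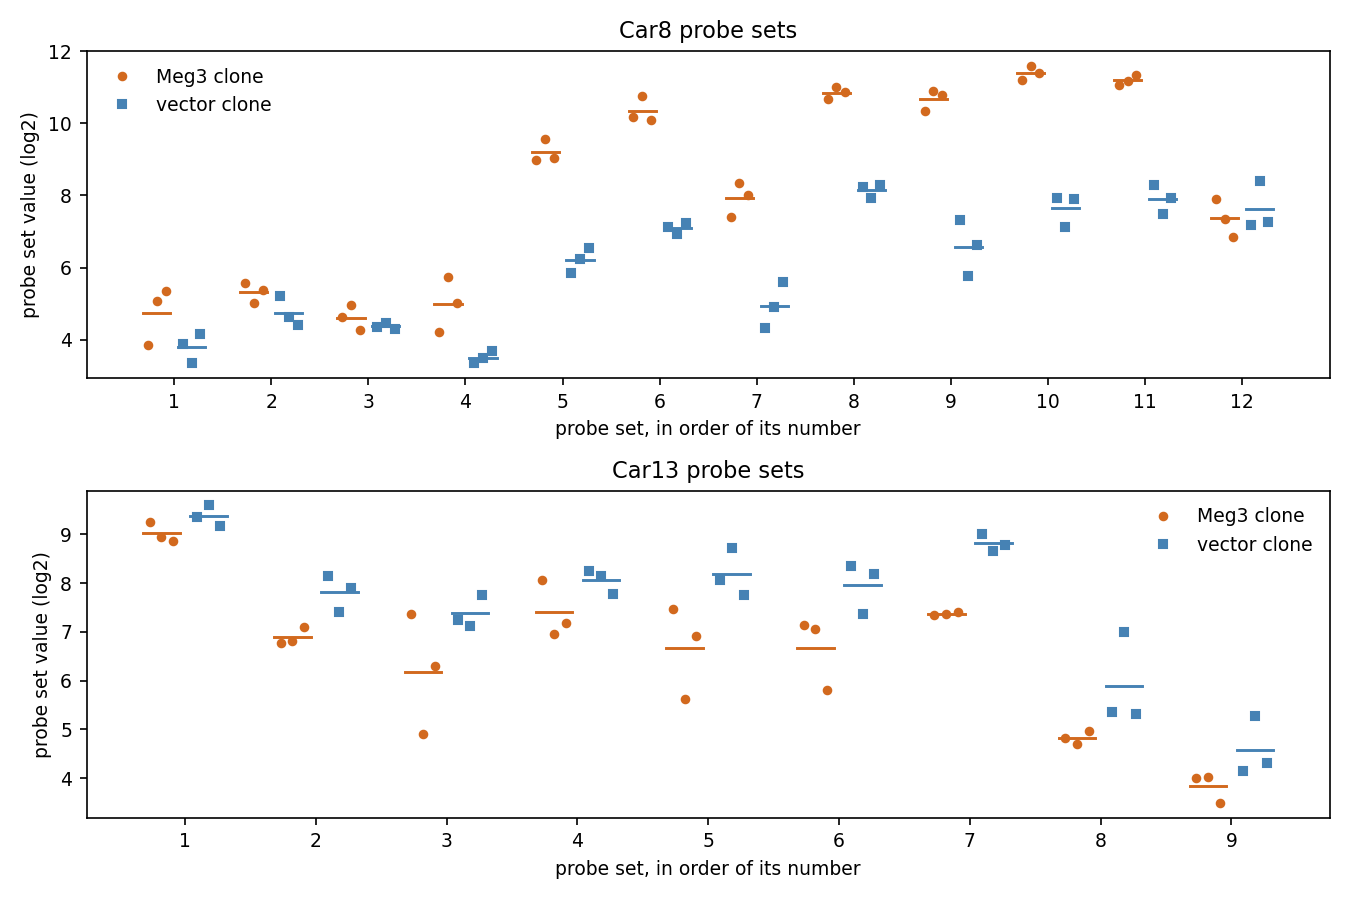
Probe set values (log2, vertical axis) of Car8 and Car13 on each array, in order of probe set number along the horizontal axis, with Meg3 clone circles left of vector clone squares and short lines at the means of 3 cultures. Car8 probe sets 5 to 11 stand 2.70 to 4.12 apart and the remaining ones -0.25 to 1.48 apart, whereas all 9 Car13 probe sets have a lower mean in the Meg3 clone.

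Car10 and Car11 are the related proteins that are secreted and bind neurexins, adhesion molecules of synapses. Car10 was bright in both clones: its gene value was 10.34, 10.77 and 10.77 in the Meg3 cultures, against 10.87, 10.04 and 10.93 in the vector cultures. The low value in each clone came from an array that stood apart, and the clones overlapped. The means were 10.62 ± 0.25 in the Meg3 clone and 10.62 ± 0.50 in the vector clone (SD, n = 3 each), with a log2 difference of 0.01 (SE 0.25; 95% interval -0.56 to 0.58). Its 14 probe sets differed by -0.44 to 0.32, and 0 of them separated the clones. Of the 14, 12 had a mean over 7.10, the median of all probe sets, in at least 1 clone. The brightest, 10380308, averaged 12.87 in the Meg3 clone and 12.82 in the vector clone.

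Car11 read 6.77, 6.78 and 6.90 in the Meg3 cultures, against 6.67, 7.03 and 6.81 in the vector cultures, close to the gene median throughout. Its difference was -0.02 (SE 0.13; 95% interval -0.33 to 0.28). That gene value hides unequal probe sets, which differed by -1.32 to 1.01. Of its 11 probe sets 2 had a mean over the probe set median in a clone, and 10553086 and 10553088 were not among them. Probe set 10553086 read 5.34, 6.27 and 5.70 in the Meg3 cultures, against 6.73, 7.52 and 7.03 in the vector cultures, with no overlap. Probe set 10553088 went the other way and also without overlap, but its difference of 1.01 leans on vector replicate 2: it read 6.17, 5.93 and 6.28 in the Meg3 cultures, against 5.71, 3.83 and 5.82 in the vector cultures. The brightest Car11 probe set, 10553083, differed by -0.09.

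Among the cytosolic enzymes, Car13 differed most between the clones. Car13 is a broadly expressed isoform whose gene neighbours Car1, Car3 and Car2. Its gene value was 6.91, 6.26 and 6.45 in Meg3 replicates 1, 2 and 3, against 7.55, 7.69 and 7.44 in vector replicates 1, 2 and 3, so the clones did not overlap. The means were 6.54 ± 0.34 in the Meg3 clone and 7.56 ± 0.13 in the vector clone (SD, n = 3 each), a 2.02-fold difference (log2 difference -1.02, SE 0.18; 95% interval -1.43 to -0.61). With all 6 arrays limma did not call it. Without Meg3 replicate 1 the difference was -1.20 and it was called, as it was without both arrays that stood apart (-1.14), a setting in which 5.44% of all genes were called.

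All 9 Car13 probe sets were lower in the Meg3 clone, by -1.51 to -0.35 on the log2 scale, and 6 of them without overlap, against 5.61% of all probe sets in that direction. Among the 978 genes with 9 probe sets, 6.03% had all 9 lower. Probe set 10490910 showed the tightest cultures: it read 7.35, 7.37 and 7.41 in the Meg3 clone, against 9.01, 8.66 and 8.78 in the vector clone. The brightest, 10490904, showed the smallest difference, with 9.26, 8.93 and 8.87 in the Meg3 cultures against 9.35, 9.59 and 9.16 in the vector cultures, and these overlap.

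Car2, the highly active isoform of ducts and many other tissues, had gene values of 6.35, 6.04 and 6.28 in the Meg3 cultures, against 6.45, 6.07 and 6.70 in the vector cultures. The clones overlapped, and the difference was -0.19 (SE 0.18; 95% interval -0.60 to 0.23). Of its 7 probe sets, 6 were lower in the Meg3 clone, and 2 had a mean over the probe set median in a clone. Probe set 10490930, with the highest signal averaged over the 6 arrays, read 8.45, 7.72 and 7.58 in the Meg3 cultures, against 8.53, 8.50 and 8.75 in the vector cultures, with no overlap and a difference of -0.68. Without the 2 arrays that stood apart the gene value differed by -0.42 and was not called. Of 8 measured duct markers, limma called 0, with 2 at an unadjusted p under 0.05, and their mean lay between 7.31 and 7.40 in the Meg3 arrays and between 7.41 and 7.48 in the vector arrays. Their part in the Car2 values was not tested. The 2 were Spp1, which averaged 11.85 in the Meg3 clone and 12.33 in the vector clone (log2 difference -0.48), and Prom1, which averaged 9.82 in the Meg3 clone and 10.38 in the vector clone (log2 difference -0.56), both named after their values were seen. With Krt7, at 10.03 in the Meg3 clone and 10.13 in the vector clone, they were the 3 duct markers over the gene median. The other 5, Krt19, Sox9, Cftr, Muc1 and Onecut1, lay under it in both clones, and all 5 overlapped.

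Car3, an isoform of low activity known from muscle and fat, was dim: it read 5.02, 4.76 and 4.95 in the Meg3 cultures, against 4.70, 5.26 and 4.75 in the vector cultures. Its difference was 0.00 (SE 0.17; 95% interval -0.39 to 0.40), and none of its 9 probe sets had a mean over the probe set median in either clone. At such values the arrays say little about its RNA.

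The membrane-anchored enzymes all overlapped between the clones. Car15, an anchored isoform that mice have and humans lack, lay above the gene median on every array, with 7.35, 7.82 and 7.96 in the Meg3 cultures against 8.03, 6.89 and 7.86 in the vector cultures. The low culture in each clone was again on an array that stood apart, and the difference was 0.12 (SE 0.30; 95% interval -0.58 to 0.81). Car4, which is held by a lipid anchor, read 5.64, 5.25 and 5.45 in the Meg3 cultures and 5.31, 5.95 and 5.20 in the vector cultures, a difference of -0.04 (SE 0.21). Of its 8 probe sets 1 had means over the probe set median, 10379867, at 8.07 in the Meg3 clone and 8.20 in the vector clone.

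Car12 and Car14 span the membrane with their catalytic part outside. Car12, a gene of many epithelia, ranged from 5.15 to 5.54 in the Meg3 cultures and from 5.02 to 5.48 in the vector cultures, a difference of 0.08 (SE 0.17). Car14 ranged from 5.55 to 5.74 in the Meg3 cultures and from 5.55 to 5.89 in the vector cultures, a difference of -0.04 (SE 0.13). Of the Car12 probe sets 1 of 10, and of the Car14 probe sets 1 of 8, had a mean over the probe set median in a clone. Over the 8 members other than Car8 and Car13, differences ran from -0.19 to 0.12 on the log2 scale and their 95% intervals lay between -0.60 and 0.81. Of the 76 probe sets of these 8 genes, 9 separated the clones, where 11.6% of all probe sets do.

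**Figure D3:**
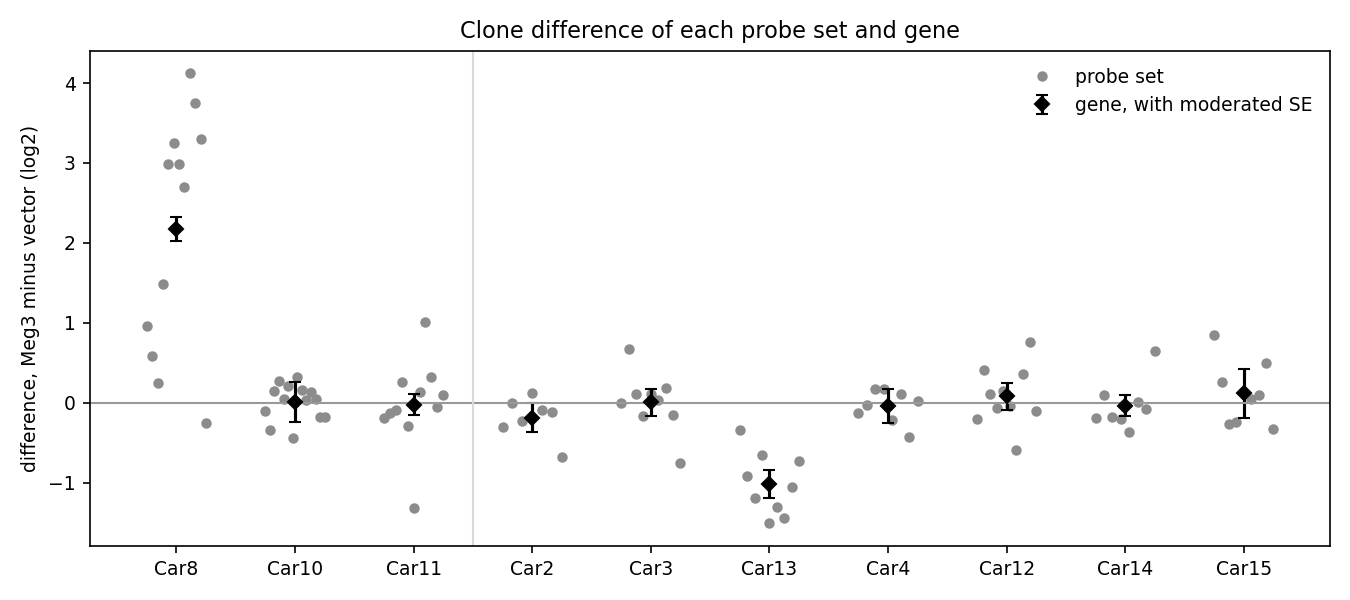
Difference between the clones, Meg3 minus vector on the log2 scale, for each probe set (grey circles) and each gene (black diamonds with the moderated SE) of the 10 carbonic anhydrase genes. Car8 probe sets reach 4.12, the 9 Car13 probe sets all lie below 0, and the other 8 genes scatter around 0.

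The 2 arrays that stood apart deviated from the remaining cultures of their own clone in the same direction for 7 of the 10 members, the exceptions being Car2, Car11 and Car14. Meg3 replicate 1 and vector replicate 2 read lower for Car10, by -0.43 and -0.86, and for Car15, by -0.54 and -1.06. They read higher for the dim members Car3 (0.16 and 0.53), Car4 (0.29 and 0.70) and Car12 (0.37 and 0.39). For Car8 the deviations were -0.33 and -0.23, small beside the clone difference of 2.18. For Car13 they were 0.56 and 0.20, beside a clone difference of -1.02. Without both arrays Car10 differed by -0.13 and Car15 by -0.06, and neither was called.

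The remaining carbonic anhydrase genes of the annotation, Car1, Car5a, Car5b, Car6, Car7 and Car9, are not members. Limma called 0 of these 6, and 1 had an unadjusted p under 0.05. That gene was Car5b, a mitochondrial isoform, chosen here after its value was seen. It read 7.10, 6.94 and 6.61 in the Meg3 cultures, against 7.47, 7.42 and 7.42 in the vector cultures (log2 difference -0.56, SE 0.15; limma adjusted p = 0.234). The clones did not overlap for Car5b, and the other 5 overlapped with differences from -0.13 to 0.14.

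The genes next to Car8 and Car13 on the chromosome differed less between the clones than Car8 and Car13 did. Car8 lies on chromosome 4 in the order of genes of the assembly GRCm38.p6, and limma called 0 of the 10 measured genes on each side of it, with 0 of these 20 at an unadjusted p under 0.05. Their differences ran from -0.43 to 0.37, with a median of 0.02. On chromosome 3, the cluster runs Car13, Car1, Gm16399, Car3 and Car2 in that order, with the predicted gene Gm16399 measured by 1 probe set. Their differences were -1.02 for Car13, -0.13 (SE 0.21) for Car1, 0.10 (SE 0.17) for Gm16399, 0.00 for Car3 and -0.19 for Car2. Of the 20 measured genes flanking this cluster, 0 were called by limma and 1 had an unadjusted p under 0.05, and their differences ran from -0.45 to 0.23 with a median of -0.11.

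**Figure D4:**
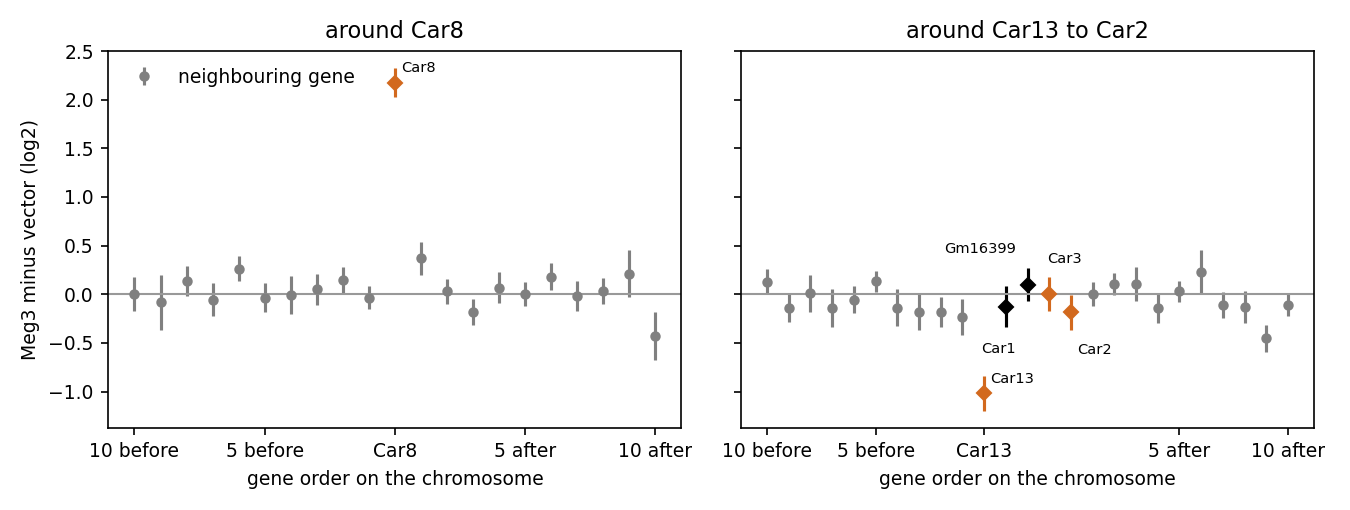
Difference between the clones (Meg3 minus vector, log2, with the moderated SE) for Car8, for the cluster from Car13 to Car2, and for 10 measured genes on each side of them, in the order of genes on the chromosome, with members in orange, Car1 and Gm16399 in black and flanking genes in grey. Car8 and Car13 stand apart from their neighbours, whose differences lie between -0.45 and 0.37.

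Since Car8 protein is known to bind the type 1 inositol trisphosphate receptor, 32 genes of endoplasmic reticulum calcium and inositol trisphosphate signalling were examined, all of them measured. By limma 1 was called higher and 0 lower. Of the 32 genes 5 had an unadjusted p under 0.05, a larger share than the 6.96% of all genes. The excess was not tested. It ran in both directions: Plcb1, Itpr1 and Itpr2 were higher in the Meg3 clone, while Stim2 (-0.34) and Homer2 (-0.31) were lower. Stim2 and Homer2 were named after their values were seen. Of the 32 differences, 14 were positive and 18 negative. The median difference was -0.01 in the list and 0.01 over all genes. The gene called was Plcb1, a phospholipase C that makes inositol trisphosphate. It read 8.13, 8.10 and 7.96 in the Meg3 cultures, against 7.14, 6.63 and 7.19 in the vector cultures. Plcb1 was thus 2.11-fold higher in the Meg3 clone (log2 difference 1.08, SE 0.17; limma adjusted p = 0.0354). The call was kept in only 1 of the 6 fits that leave out an array, the one without vector replicate 2. It was lost without Meg3 replicate 1 (1.04), 2 (1.06) or 3 (1.12) and without vector replicate 1 (1.15) or 3 (1.18).

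Itpr1, the receptor gene itself, read 7.05, 7.35 and 7.27 in the Meg3 cultures, against 6.84, 6.57 and 6.92 in the vector cultures. Every Meg3 culture lay above every vector culture, where 12.8% of all genes have groups that do not overlap. The difference did not pass the test (0.45, SE 0.14; 95% interval 0.12 to 0.77; limma adjusted p = 0.398). Without both arrays that stood apart it was 0.43 and was called (limma adjusted p = 0.0330), a setting in which 5.44% of all genes were called. Its brightest probe set differed by 0.17. Itpr2 and Itpr3, the other receptor genes, chosen after their values were seen, differed by 0.35 (SE 0.14) and -0.30 (SE 0.21), and limma called neither with all 6 arrays. Without both arrays that stood apart limma called Itpr3 too, but as lower in the Meg3 clone. It read 7.26 and 7.21 in Meg3 replicates 2 and 3, against 7.71 and 7.68 in vector replicates 1 and 3.

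Bicarbonate and proton transporters move the products of the enzyme reaction across membranes. Of 30 such genes 27 were measured, and limma called 0 of them, with a median difference of -0.02. Of the 27, 4 had an unadjusted p under 0.05, also a larger share than the 6.96% of all genes. That excess was not tested either. The list members with the highest level were Slc9a7, a sodium-proton exchanger of the Golgi, which differed by -0.17 (SE 0.11), and Bsg, a partner of lactate transporters, which differed by -0.27 (SE 0.26). Among genes chosen after their values were seen, Slc4a10, a sodium-coupled bicarbonate transporter, averaged 8.95 ± 0.18 in the Meg3 clone and 8.20 ± 0.08 in the vector clone (SD, n = 3 each), which is 0.75 apart (SE 0.13; limma adjusted p = 0.0546). The sodium-proton exchanger gene Slc9a2 averaged 5.48 ± 0.06 in the Meg3 clone and 6.11 ± 0.12 in the vector clone (SD, n = 3 each), which is -0.64 apart (SE 0.12; limma adjusted p = 0.0684). Both separated the clones without overlap, as 12.8% of all genes do. Without vector replicate 2, limma called Slc4a10, Slc9a2 and Slc9a9, where 1.71% of all genes were called. Without both arrays that stood apart it called these and the lactate transporter gene Slc16a3, where 5.44% of all genes were called. In that fit Slc4a10 was higher (0.68), while Slc9a2 (-0.58), Slc9a9 (-0.64) and Slc16a3 (-0.53) were lower. With the brightest probe set on all arrays, Slc4a10 differed by 0.53, Slc9a2 by -0.32, Slc9a9 by -0.16 and Slc16a3 by 0.04.

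**Figure D5:**
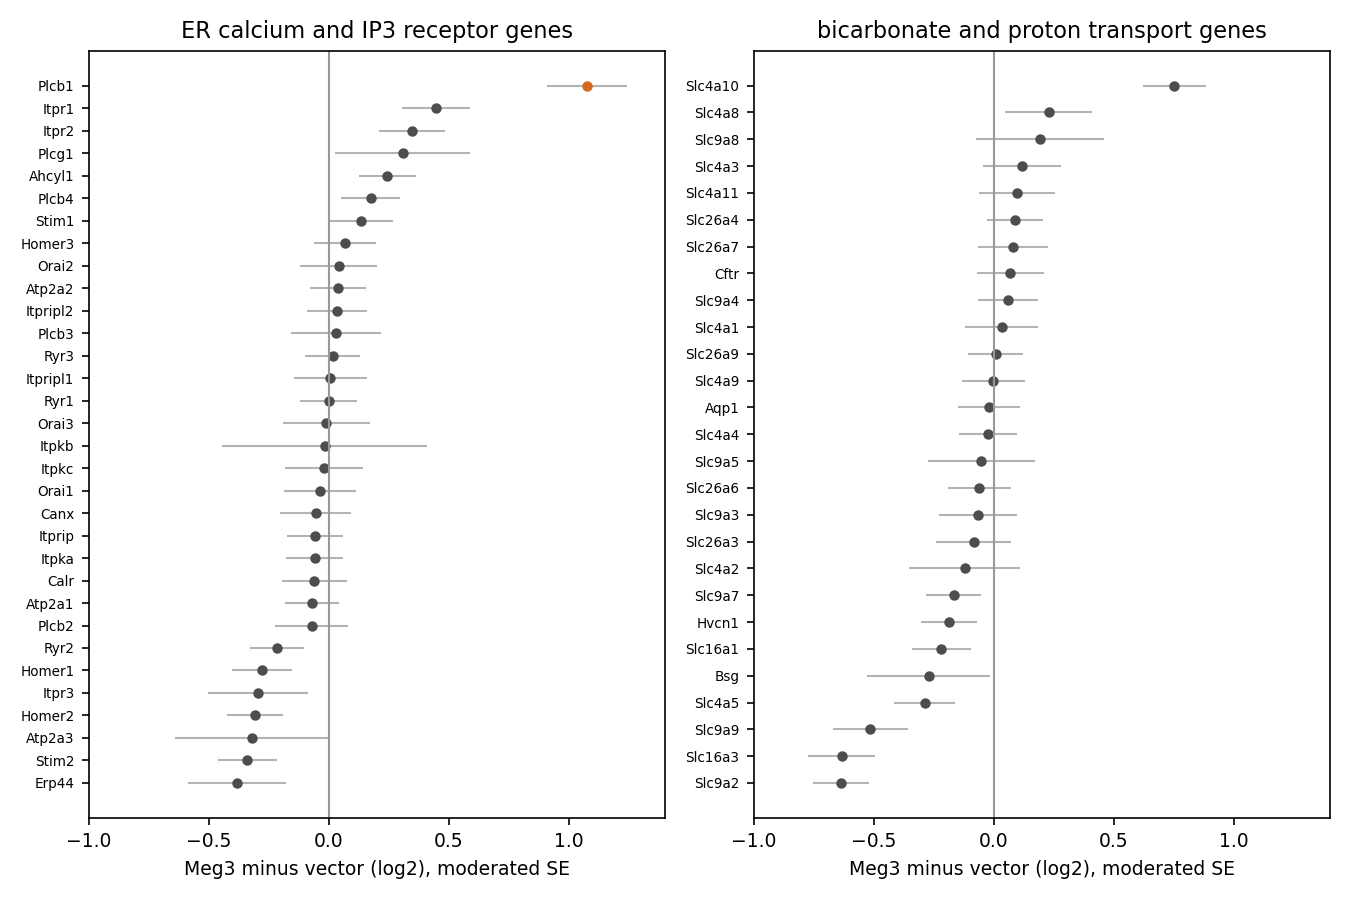
Difference between the clones (Meg3 minus vector, log2, horizontal axis, with the moderated SE) for each measured gene of endoplasmic reticulum calcium and inositol trisphosphate signalling and of bicarbonate and proton transport. Plcb1 (orange) was the 1 gene called, at 1.08, and Slc4a10 at 0.75 was the highest of the transport genes without being called.

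The genes whose profile over the 6 arrays was most like that of Car8 were found by the root mean square difference of values centred on each gene's mean. The candidates were 9222 genes with a mean over the 6 arrays above the gene median, leaving out predicted genes and names derived from clones or accessions. They were Cdh6, a cadherin (0.21), Coch, a secreted protein (0.22), Meg3 (0.29), Dgkb, a diacylglycerol kinase (0.30), and Moxd1, a monooxygenase-like protein (0.32), where the median of all candidates was 1.12. Coch read 9.23, 9.29 and 8.96 in the Meg3 cultures, against 7.34, 7.20 and 7.32 in the vector cultures. Cdh6 read 9.88, 9.93 and 9.86 in the Meg3 cultures, against 8.16, 7.54 and 8.12 in the vector cultures. All 5 share with Car8 a large positive clone difference, which the measure rewards. A gene without a clone difference scores high by construction, since the Car8 difference of 2.18 remains in the measure. The median of the candidates is therefore no independent benchmark. Meg3 and Dgkb averaged 5.84 and 5.95 in the vector clone, under the gene median, and 7.56 and 7.66 in the Meg3 clone. Both were candidates only through their values in the Meg3 clone. With 2 clones the likeness is a description of these 6 arrays.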

How the data were processed

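The values are log2 signals per probe set as the authors deposited them, and the submitters' processing notes name RMA and Partek. Their versions, and the genome build, were not given in the sources used. The table holds 241419 probe sets on 6 arrays. Of these 212097 had 1 gene symbol in the array annotation, 4475 several and 24847 none, and only the first kind was used. Values were averaged per gene and array (20416 genes; 20363 matched in the GRCm38.p6 gene table, 2742 through a synonym). The Meg3 minus vector difference was fitted without covariates by lmFit and eBayes of limma 3.58.1, run in R 4.3.3. Two-sided p-values were adjusted by the Benjamini-Hochberg method across all genes, and the steps were tested on simulated data. The simulated noise was independent for each gene and array and held no arrays that stood apart. That test therefore does not give the error rate on these arrays. Precision is limited by the number of arrays. Called means an adjusted p under 0.05. Errors beside differences are moderated standard errors.

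The members, lists and alternatives were chosen with earlier results of these data known. Named were all 10 members, the 6 other carbonic anhydrases, Meg3, Itpr1, called members of the 2 lists (or the 2 brightest where none was called), called neighbours and the 5 profiles most like Car8. Alternatives were a replicate block, array scaling, a filter on dim genes, other summaries of probe sets, another variance model and leaving out arrays. No sequence of Car8 or Car13 was used here.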

Additional observations from a re-analysis of the deposited data

How the results depend on the processing

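Of the alternatives run, 14 in all, none turned the Car8 difference round or left it out of the calls. All of them re-use the arrays on which the family was chosen for that difference, so this is a description and supports nothing. The Car8 difference was 3.30 with the brightest probe set of each gene and from 2.06 to 2.29 with 1 array left out at a time. The number of Car8 probe sets that were higher was 11 or 12 in those fits. The count of called members was 1 except without both arrays that stood apart (2) and, with 1 array left out, from 1 to 2, Car13 being the addition, without Meg3 replicate 1. The count of called genes was 136 with all arrays, 30 with the replicate block (29 of the 136 kept), 40 with the brightest probe set, 58 with the median of probe sets and 1111 without both arrays that stood apart, and from 22 to 349 with 1 array left out. The calcium list had 1 call with all arrays. It had 0 with the replicate block (Plcb1 limma adjusted p = 0.154), the brightest probe set or the median of probe sets. Without both arrays it had 3 (Plcb1 and Itpr1 higher, Itpr3 lower), and with 1 array left out from 0 to 1. The transport list had 1 call with eBayes using trend and robust estimation (Slc9a2), 4 without both arrays, and from 0 to 3 with 1 array left out. Centring or repeated quantile normalization changed no member's call. The brightest probe set gave -0.68 for Car2 and -0.35 for Car13, and the median of probe sets gave -0.75 for Car13. Meg3 itself was no longer called with the brightest probe set (2.02), with the median of probe sets (3.33) or without Meg3 replicate 3 (1.74). The cause of these changes was not tested. Same-numbered deviations of the 2 clones correlated across genes at -0.61, -0.63 and 0.28. The arrays that stood apart carry different numbers, and their deviations correlated at 0.65. Because these arrays shape the other deviations of their clones, the values cannot decide whether same-numbered cultures were paired.

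Probe brightness limits what can be read of Car3, Car4, Car12 and Car14, and of most probe sets of Car2 and Car11. Having 3 arrays a clone limits the precision of every difference.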
